A study of Sus scrofa with 48 samples.

Results

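The apolipoprotein genes were followed in the longissimus muscle of 48 growing pigs. The set was chosen by name on earlier results of the same pigs, and holds APOA1, APOA4, APOB, APOC3, APOD, APOE, APOH, APOR and APOO. A probe belonged to the set when its gene name was that of a member, or when its description held the member's symbol in brackets. Members were then selected on signal, and a probe was kept when 12 or more of the 48 arrays showed it well above background. Just inside this limit lay a probe of APOA4 with 12 arrays and the probe of APOH with 13, and just outside it another APOA4 probe with 8. Of the 9 genes looked for, 8 had a probe by this rule, and all 8 kept at least 1, against 10898 gene symbols on the array and 9074 with a kept probe. They had 21 probes, of which 18 were kept, among 42125 kept probes in all. Each of these 18 was compared between the groups in the fit over all 42125 probes.

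The pigs came from lines selected for low or high residual feed intake (RFI), the feed eaten beyond the need predicted for growth and maintenance, so that low RFI pigs are the more efficient ones. Within each line, 12 pigs ate freely from a feed with much fat and fiber (HF) and 12 from one with little of either (LF). All pigs came from a selected line, so the comparison has no unselected group, and the labels give neither age nor sex. Total RNA of each pig was labelled with Cy3 and hybridised on its own one-colour array of 60-base probes. A level below is the log2 signal of a probe minus the mean over the kept probes of that array, so 0 is an average probe, and the line difference is high RFI minus low RFI. The share of probes well above background ranged from 59.2% to 74.2% by array. The 12 muscle fibre markers tested, such as ACTA1 and CKM, were so on all 48 arrays, with a summed level between 12.96 and 13.53 in every pig.

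Apolipoproteins are the protein part of the particles that carry lipids in blood. APOB forms the scaffold of very low and low density lipoproteins, APOA1 that of high density lipoproteins, and APOA4 is made mainly by the small intestine when fat is absorbed. APOC3 slows the clearance of triglyceride-rich particles, APOE is the ligand by which cells take up remnants, and APOH is a plasma glycoprotein that binds phospholipids. APOD is a lipocalin, and APOO a part of the mitochondrial inner membrane.

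Between the lines, 1 of the 18 probes differed (limma, Benjamini-Hochberg adjusted p under 0.05 over all probes), which is 5.56% of them, against 16.4% of all probes tested. The median line difference was -0.08 over the 18 probes and -0.03 over all probes. The probe called was 1 of the 3 named APOA4, and the other kept APOA4 probe, of another sequence, had a difference of opposite sign. The called probe was well above background in 19 low RFI pigs and 4 high RFI pigs. Because it was kept through the low RFI pigs, its call is in part what the choice required. The same probe made the count within each diet, with the same limit. Within the HF diet the count was again 1 of 18, against 6.39% of all probes, and within the LF diet 1 of 18, against 2.47%. Diets differed at 0 of the 18 probes in limma at the same threshold, against 0.42% of all probes. At an unadjusted p under 0.05 were 6 of the 18, against 13.1% of all probes. Among these 6 were the 4 probes of APOA1, which correlated with each other at 0.94 to 0.97. The line by diet interaction called 0 of 18 in limma, against 0% of all probes. At an unadjusted p under 0.05 were 0 of 18, against 4.45% of all probes.

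**Figure D1:**
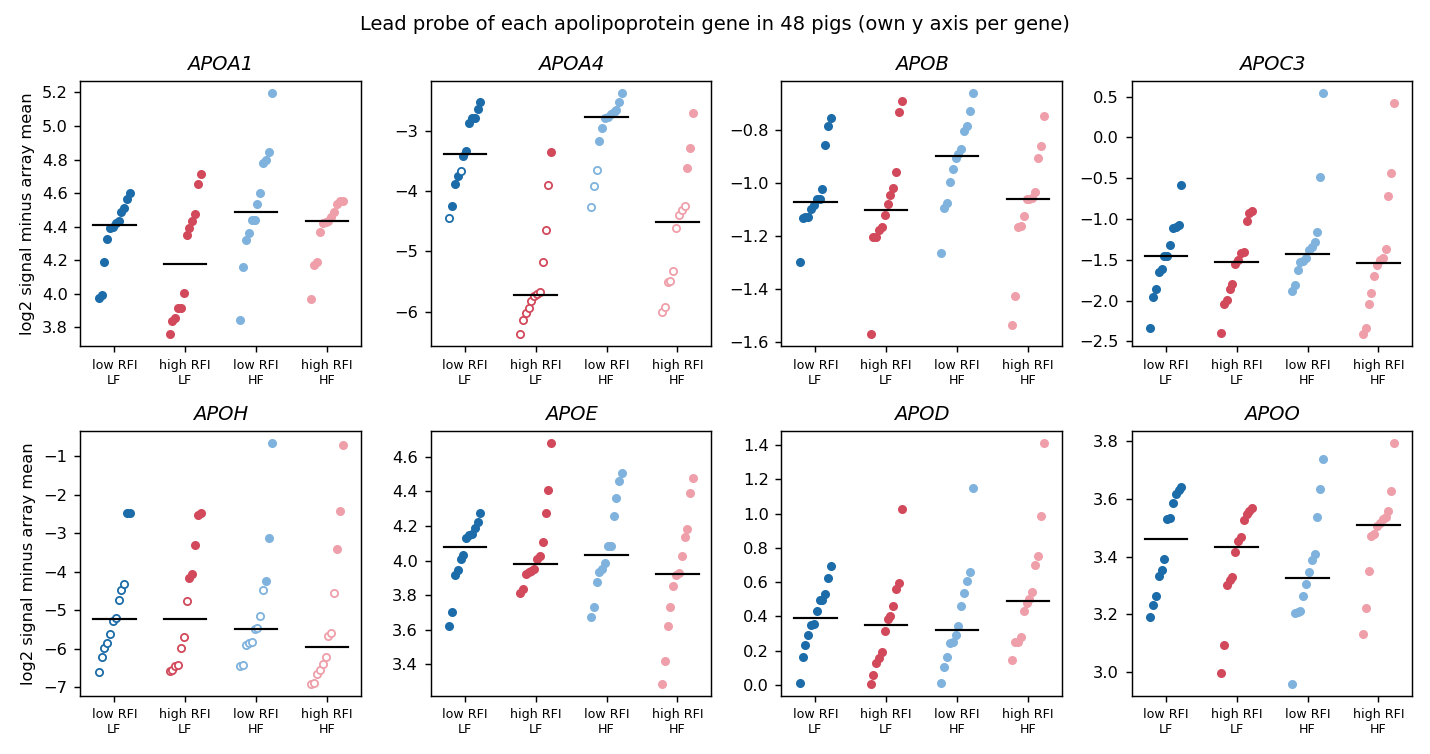
Level of the lead probe of each gene (y axis, log2 signal minus the array mean, its own scale per gene) in the 4 groups of line and diet (x axis). Each point is 1 of 12 pigs, filled where the probe was well above background, and the bar is the median. High RFI pigs sit lower at the APOA4 probe, with medians of -5.72 against -3.38 on the LF diet, and the groups overlap at every gene.

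The lead probe of a gene is the one well above background on the most arrays, and with ties the one of the highest mean level. A p was printed only for the 15 probes that 12 or more of the 24 arrays of each line showed well above background, which leaves out APOH and the APOA4 probes. Over these 15, the line difference ranged from -0.16 to 0.09, with 10 below 0 and 5 above 0, and the smallest adjusted p from limma was 0.179. Their widest 95% confidence interval ran from -0.89 to 0.75, at a probe of APOC3.

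**Figure D2:**
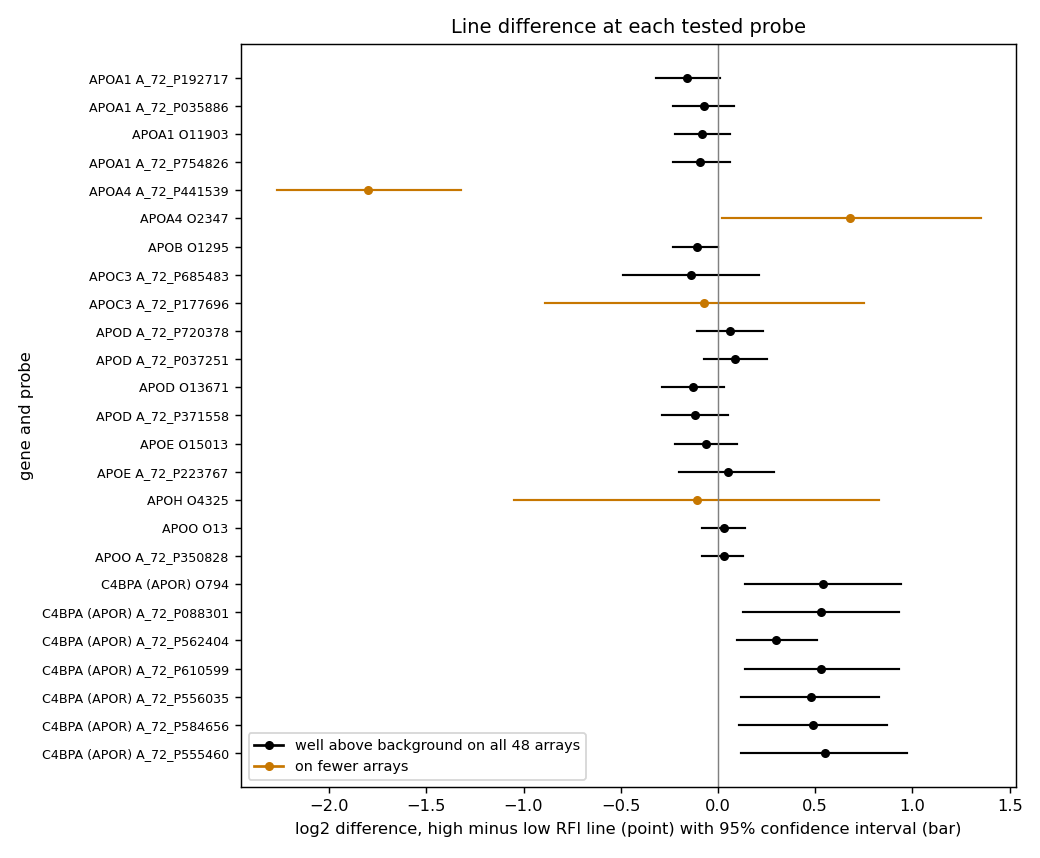
Line difference (x axis, log2, high minus low RFI line) with its 95% confidence interval for the 18 kept probes and the 7 probes of C4BPA, the gene that holds APOR as a synonym (y axis). Orange marks probes well above background on fewer than 48 arrays. The upstream probe of APOA4 stands at -1.80, and the 7 C4BPA probes lie between 0.30 and 0.55.

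APOA1, the main protein of high density lipoproteins, was measured in every pig by 4 probes. Its lead probe spanned 3.98 to 4.60 (median 4.41) in LF-fed pigs of the low line and 3.76 to 4.71 (median 4.18) in those of the high line. HF-fed pigs spanned 3.85 to 5.20 (median 4.49) in the low line and 3.97 to 4.55 (median 4.43) in the high line. All 4 groups overlapped. The line difference was -0.16 (standard error 0.08, limma adjusted p = 0.18), and within slides it ranged from -0.51 to 0.18. The other 3 probes gave line differences from -0.09 to -0.07, and any pair of the 4 correlated at 0.94 to 0.97 over the 48 pigs after group means were subtracted. This and the later correlations are descriptions over the same 48 arrays, which share any array effect. A further spot, named only by a sequence number, holds the same 60 bases as the APOA1 probe A_72_P035886, and the 2 readings correlated at 0.95 and differed by 0.10 on average. Among the other probes, A_72_P754826 and O11903 share 39 bases, and A_72_P035886 shares 25 with each, so they are no independent readings. The spread between pigs, with a pooled SD of 0.28 at the lead probe, was seen alike by each of the 4 probes.

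APOA4 was measured by 3 probes that hold only 2 different 60-mers, printed here because they gave line differences of opposite sign. Capitals mark in the upstream probe a run that returns below, and in the downstream probe AATAAA, the usual signal for polyadenylation near the end of a transcript. AATAAA is held by 10.3% of the 60305 probes of the array, and its reverse complement by 4.32%.
APOA4 upstream, A_72_P441539: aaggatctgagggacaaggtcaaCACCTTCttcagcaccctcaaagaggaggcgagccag
APOA4 downstream, O2347: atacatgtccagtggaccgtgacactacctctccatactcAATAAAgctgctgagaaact

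In the array files, the upstream probe starts at base 1115 of the transcript, and a copy of the downstream one at base 1328. At the upstream probe, LF-fed low RFI pigs spanned -4.45 to -2.53 (median -3.38), and LF-fed high RFI pigs -6.37 to -3.34 (median -5.72). For HF-fed pigs the span was -4.26 to -2.37 (median -2.77) in the low line and -6.00 to -2.70 (median -4.50) in the high one. The ranges overlapped, but 10 of the 12 high RFI pigs on the LF diet and 8 of the 12 on the HF diet lay below every low RFI pig of their diet. The line difference was -1.80 (standard error 0.23), at -2.01 on the LF diet and -1.58 on the HF diet. It passed the threshold in all 3 comparisons. Its size rests on signals near the background, since the probe was well above it in 19 of 24 low RFI pigs and 4 of 24 high RFI pigs, and with normexp background correction the difference was -0.41. The probe was kept through the low RFI pigs, so its lower level in the others is in part what the choice required. For these reasons no p is given, and since the difference was known when the set was named, it is no independent evidence. It was below 0 within each of the 6 slides, from -2.52 to -1.25, and was -1.76 and -1.83 on the 2 days of scanning. Of its variance within groups, 22.6% lay between slides and 13.8% between scan days.

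The downstream 60-mer was spotted 3 times under different names and did not follow the upstream probe. Its kept copy was well above background in 4 low and 8 high RFI pigs, just reaching the minimum of 12. Levels in LF-fed pigs ran from -6.55 to -3.29 (median -5.55) for the low line and -6.00 to -2.84 (median -4.97) for the high line. With the HF feed, these spans were -6.67 to -2.35 (median -5.32) and -6.17 to -1.89 (median -4.62). The groups overlapped nearly throughout, and the line difference was 0.68 (standard error 0.33). The second copy, named by a sequence number alone, gave 0.37 and was well above background on 12 arrays. The third copy, the APOA4 probe A_72_P146996, gave 0.30 and was well above background on 8 arrays, which left it outside the set of kept probes. Pairs of the 3 copies correlated at 0.57 to 0.76 over the pigs, whereas the kept copy and the upstream probe correlated at -0.04.

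**Figure D3:**
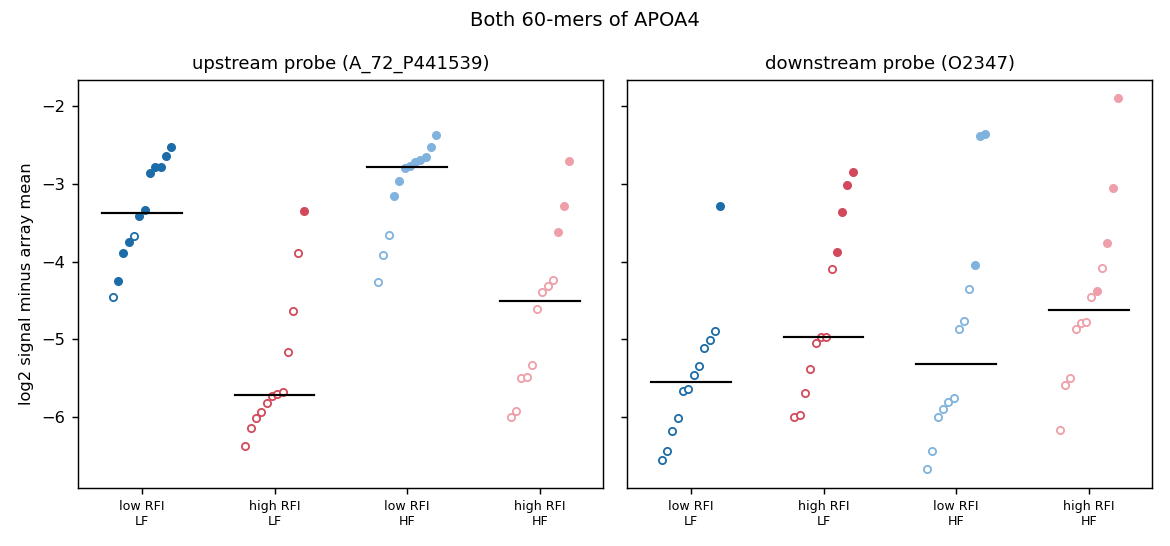
Level of the upstream and the downstream probe of APOA4 (y axis, log2 signal minus the array mean, shared by both panels) in the 4 groups of 12 pigs (x axis). Filled points were well above background, open points were not, and bars are medians. High RFI pigs lie lower at the upstream probe and not at the downstream one, where the line difference was 0.68.

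The probes whose level followed the upstream APOA4 probe most closely from pig to pig, once group means were subtracted, were those of KCNE1, ADCY4 and PDGFRB, at correlations of 0.78, 0.73 and 0.69 over 48 pigs. KCNE1 is a subunit of potassium channels, ADCY4 an adenylate cyclase and PDGFRB a growth factor receptor. These probes were lower in high RFI pigs as well, by limma, at -1.78 (adjusted p = 9.93e-06), -0.68 (adjusted p = 1.36e-08) and -2.04 (adjusted p = 1.1e-07). The other tested probes of the same genes differed from them. That of KCNE1 was higher in high RFI pigs, at 0.42 (limma adjusted p = 0.0178). Those of ADCY4 gave -0.11, 0.01 and 0.01, and that of PDGFRB 0.08, with none of the 4 past the threshold. Their correlations with the upstream APOA4 probe lay between -0.23 and 0.20. Whether the upstream probe reads APOA4 alone was not tested, so its -1.80 is the difference of that probe and may not be that of the APOA4 transcript. The sequences are printed because they share letters with it.
KCNE1, A_72_P035586: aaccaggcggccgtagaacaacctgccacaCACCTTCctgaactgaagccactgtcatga
ADCY4, A_72_P555885: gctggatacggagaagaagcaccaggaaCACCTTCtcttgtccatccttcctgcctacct
PDGFRB, A_72_P118391: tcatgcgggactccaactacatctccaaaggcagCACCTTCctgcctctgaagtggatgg

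All 4 probes hold the run CACCTTC, in capitals, which was noticed after the values had been seen. It is held by 358 of the 60305 probes, or 0.594%, and its reverse complement by 0.547%. Of the 10 probes most like the upstream APOA4 probe, whatever their name, 6 hold it, with 4 different 60-mers among them, and all 10 were called lower in high RFI pigs. Of the 266 tested probes with the run, 65 were called between the lines, 53 lower and 12 higher in high RFI pigs, or 24.4% against 16.4% of all probes. The upstream APOA4 probe and those 6, in which the run was noticed, are among the 53, so this share is in part built in. Their median line difference was -0.07, against -0.03 over all probes. The part of these letters in the signal of the upstream APOA4 probe was not tested. Of the 8 enterocyte markers, 6 had no tested probe, FABP2, SI, ALPI and RBP2 among them, and LCT and ANPEP gave -0.06 and -0.02 between the lines, with 0 of 2 called by limma.

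APOB, the scaffold of very low density lipoproteins, was measured by 1 kept probe. With the LF feed, the low line covered -1.30 to -0.75 (median -1.07) and the high line -1.57 to -0.69 (median -1.10). HF-fed pigs spanned -1.27 to -0.66 (median -0.90) in the low line and -1.53 to -0.75 (median -1.06) in the high line. The groups overlapped over nearly their whole range. High minus low RFI gave -0.11 (standard error 0.06, limma adjusted p = 0.179). On 5 of 6 slides the difference was below 0. The other 2 APOB probes were well above background on 3 and 1 arrays and were not kept. Their mean levels were -5.52 and -6.21 in the low line, against -0.98 at the kept probe. In the high line they were -5.55 and -6.37, against -1.09. Whether the kept probe reads APOB alone was not tested. The lead probe followed PEX6, a peroxisomal ATPase, most closely, at a correlation of 0.77, with Cenpb at 0.75 and PIK3R2 at 0.74. With albumin it correlated at 0.15, and with the mean of the macrophage markers at -0.54.

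APOC3 and APOH, both secreted by the liver, had probes that varied more between pigs than most others, and neither gene was called between lines or diets. Their probes are printed as the readings that moved with albumin. They share no run of 20 bases with a probe of another gene name on the array, apart from a second spot of 1 APOC3 60-mer.
APOC3, A_72_P685483: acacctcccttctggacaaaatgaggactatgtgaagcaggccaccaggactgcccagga
APOC3, A_72_P177696: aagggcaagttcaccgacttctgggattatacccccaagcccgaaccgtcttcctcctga
APOH, O4325: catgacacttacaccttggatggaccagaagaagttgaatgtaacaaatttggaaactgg

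The lead probe of APOC3 was well above background on all 48 arrays. LF-fed low RFI pigs spanned -2.33 to -0.58 (median -1.46), and LF-fed high RFI pigs -2.39 to -0.90 (median -1.52). For HF-fed pigs the span was -1.89 to 0.54 (median -1.43) in the low line and -2.41 to 0.42 (median -1.53) in the high one. The highest level in each line was that of a pig on the HF diet, and the 4 groups overlapped. Lines differed by -0.14 (standard error 0.18, limma adjusted p = 0.622). The second APOC3 probe had a wider span, from -3.89 to 1.81 over the 48 pigs, and a line difference of -0.07 (standard error 0.41, limma adjusted p = 0.928). Its pooled SD within groups was 1.45, larger than that of 99.5% of the tested probes, whose median SD was 0.26. A second spot with the same 60 bases correlated with it at 0.99, and the other APOC3 probe at 0.84.

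APOH had a pooled SD of 1.66, above that of 99.8% of tested probes, and was well above background on 13 arrays, 5 of low and 8 of high RFI pigs, so it is described without a p. Levels in LF-fed pigs ran from -6.61 to -2.46 (median -5.24) for the low line and -6.58 to -2.46 (median -5.22) for the high line. With the HF feed, these spans were -6.45 to -0.65 (median -5.47) and -6.91 to -0.71 (median -5.95). Each group thus held a few pigs far above its median, and the groups overlapped. The line difference was -0.11 (standard error 0.47), and by slide it ran from -0.82 to 0.76.

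Both genes moved together with other genes of liver and plasma. After group means were subtracted, the second APOC3 probe correlated with ALB, which encodes albumin, at 0.98 and APOH at 0.91, over 48 pigs. The APOC3 lead probe followed HPX, ITIH2 and TF most closely, at 0.92, 0.85 and 0.84, and APOH followed 2 probes of ALB and 1 of TF, at 0.91 to 0.92. HPX binds heme, TF carries iron, and ITIH2 is a protease inhibitor chain of plasma. Of 24 tested genes in the list of hepatocyte and plasma proteins, 17 correlated above 0.5 with the second APOC3 probe and 17 with APOH. The exceptions included PON1 and PON3, at -0.07 and -0.10 with that APOC3 probe, which were also the genes of the list with the largest line differences, at -2.50 and -2.14. C3, a complement protein also made by macrophages, correlated with it at 0.24.

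Of the 12 pigs with the highest ALB level, 6 belonged to each line and 3 to each of the 4 groups. Among them were 11 of the 12 pigs highest for the second APOC3 probe and 10 of the 12 highest for APOH. Slides accounted for 11.1% of the variance of that APOC3 probe within groups, and scan days for 5.59%. ALB itself ranged from -3.62 to 2.91 (median -1.34). The summed level of the 24 plasma protein genes lay between 4.58 and 6.42 over the pigs. It is the log2 of summed signals, so the genes of the highest level weigh most. Highest was ITIH4, at a mean level of 4.56, which correlated with the second APOC3 probe at -0.03. In pieces of tissue, more cells of a type and more RNA per cell cannot be told apart. Where the RNA of these genes came from was not tested.

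**Figure D4:**
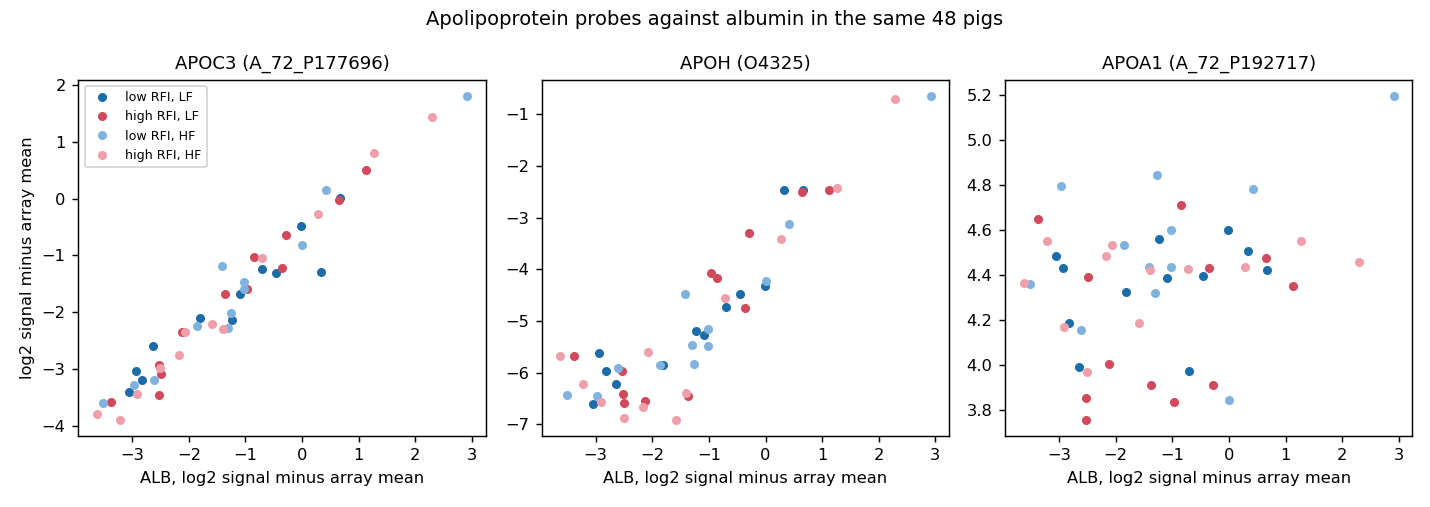
Level of the second APOC3 probe, of APOH and of the APOA1 lead probe (y axes, log2 signal minus the array mean) against ALB (x axis, same unit), 1 point per pig, coloured by line and diet. Higher ALB goes with higher APOC3 and APOH, at correlations of 0.98 and 0.91, and for the APOA1 lead probe the correlation is 0.30.

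The members made by the liver did not all share this pattern. APOA1 correlated with the 24 plasma protein genes at a median of 0.30 at its lead probe, and with none above 0.5. For APOB the median was 0.15, with 2 genes above 0.5, RBP4 at 0.65 and VTN at 0.62. The median was 0.30 for the APOE lead probe, and 0.64 to 0.74 for APOC3 and APOH. The closest named probes for APOA1 were rgs12, at 0.59, and 2 probes of KDR, a receptor of endothelial cells, at 0.59 and 0.58. APOA1, APOC3 and APOA4 are neighbours in the pig genome in the RefSeq gene table. The kept downstream probe of APOA4 came closest to GC, MYL2 and HPX, at 0.52, 0.49 and 0.47.

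APOE, the ligand for uptake of remnant particles, was measured in all pigs by 2 probes. At the lead probe and with the LF feed, the low line covered 3.62 to 4.27 (median 4.08) and the high line 3.81 to 4.68 (median 3.98). HF-fed pigs spanned 3.68 to 4.51 (median 4.03) in the low line and 3.29 to 4.48 (median 3.92) in the high line. The groups overlapped. Its line difference was -0.06 (standard error 0.08, limma adjusted p = 0.665), with a 95% confidence interval from -0.22 to 0.10. The second probe gave 0.05 (standard error 0.12, limma adjusted p = 0.833). Both probes correlated at 0.86, and a spot that shares 59 bases with the lead probe followed it at 0.97. The lead probe was closest to BGN, a matrix proteoglycan, at 0.64. The second was closest to PIK3R5 and ACP5, both known from myeloid cells, at 0.68 and 0.64. It correlated at 0.52 with the mean of the macrophage markers, of which 6 of 8 tested were higher in high RFI pigs.

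APOR had no probe under its own name or in a description. In the RefSeq gene table APOR is a synonym of a gene with the symbol C4BPA, the alpha chain of the complement inhibitor C4b-binding protein, and the array holds 7 probes named C4BPA. They lie outside the rule and were added after their values had been seen. A further spot, whose name carries the abbreviation PIGAPLPR, has the same 60 bases as 1 of them, printed here for that reason. That these probes read APOR is taken from the names alone.
C4BPA, A_72_P088301: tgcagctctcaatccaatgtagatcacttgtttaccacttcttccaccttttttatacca

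All 7 C4BPA probes were well above background in every pig, and their line differences lay between 0.30 and 0.55. At the lead probe, LF-fed low RFI pigs spanned 1.32 to 3.46 (median 2.60), and LF-fed high RFI pigs 1.52 to 3.74 (median 3.17). For HF-fed pigs the span was 0.77 to 3.12 (median 2.06) in the low line and 1.05 to 4.22 (median 2.34) in the high one. The groups overlapped widely, and the difference of 0.54 (standard error 0.20) missed the threshold (limma adjusted p = 0.0542). Only A_72_P562404 passed it, at 0.30 (standard error 0.10, limma adjusted p = 0.0332), so 1 of 7 was called, against 16.4% of all probes. The other 6 had limma adjusted p between 0.0542 and 0.0691. These 6 probes lie close to the threshold, and 0 to 4 of the 7 passed under the other settings tried. The lead probe was higher in the high line on 5 of 6 slides, from -0.21 to 0.94. Between diets, HF minus LF, the 7 probes gave -0.44 to -0.20. Limma called 0 of 7, against 0.42% of all probes, with 3 at an unadjusted p under 0.05, against 13.1% of all probes. The probes share a gene name and, over the 6 with no missing value, every pair correlated at 0.94 or more, so they are no independent readings. For A_72_P088301 the fit left out 1 missing value.

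The probes most like the C4BPA lead probe were C1QB at 0.87, Cd53 at 0.87 and MRC1 at 0.86, genes of macrophages and other leukocytes. The mean of the macrophage markers correlated with it at 0.76, and that of the plasma protein genes at 0.03. Between the lines, 6 of the 8 tested macrophage markers were called higher in high RFI pigs, against 16.4% of all probes called. The part of macrophages in the C4BPA values was not tested.

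**Figure D5:**
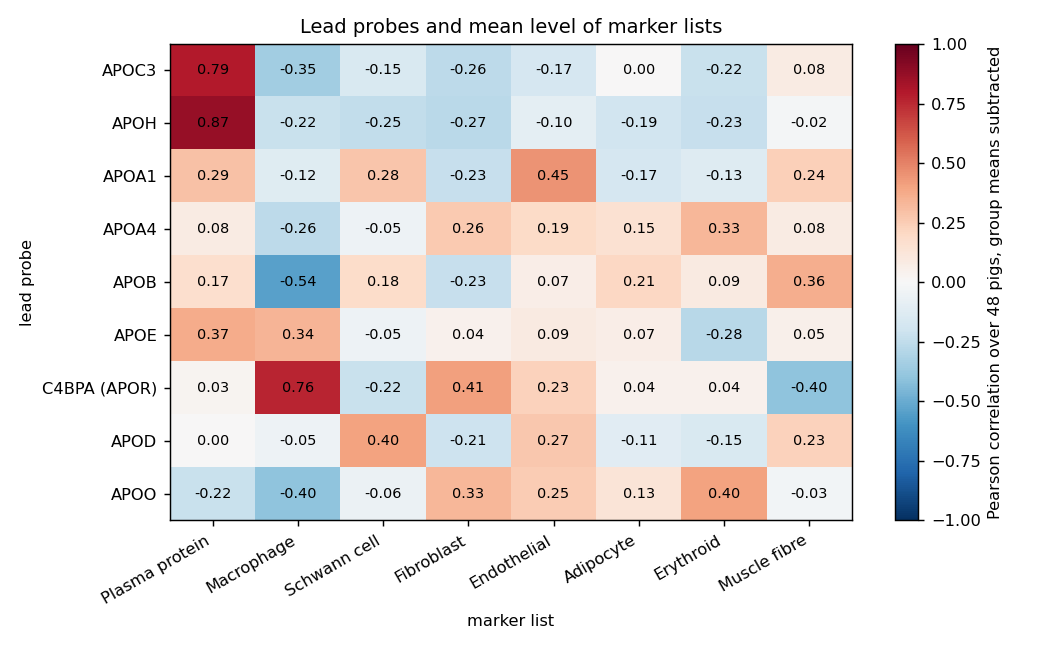
Pearson correlation over 48 pigs, after group means were subtracted, between the lead probe of each gene (rows) and the mean level of each marker list (columns), from -1 in blue to 1 in red. APOC3 and APOH follow the plasma protein list, at 0.79 and 0.87, C4BPA the macrophage list at 0.76, and no other value reaches 0.6 in size.

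APOD, a lipocalin that carries small lipids and is found in nerve sheaths among other places, was measured in all pigs by 4 probes. They are printed because their likeness to other genes differed. In the last pair, capitals mark the 55 bases that both probes share.
APOD, A_72_P720378: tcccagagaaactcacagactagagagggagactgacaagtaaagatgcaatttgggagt
APOD, A_72_P037251: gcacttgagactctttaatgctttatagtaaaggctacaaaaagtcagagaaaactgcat
APOD, O13671: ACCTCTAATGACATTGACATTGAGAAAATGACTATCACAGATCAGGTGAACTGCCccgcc
APOD, A_72_P371558: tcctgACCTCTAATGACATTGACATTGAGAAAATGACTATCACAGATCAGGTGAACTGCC

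Lead probe levels in LF-fed pigs ran from 0.01 to 0.70 (median 0.39) for the low line and 0.01 to 1.03 (median 0.35) for the high line. With the HF feed, these spans were 0.01 to 1.15 (median 0.32) and 0.15 to 1.41 (median 0.49). Its line difference was 0.06 (standard error 0.08, limma adjusted p = 0.651), and the groups overlapped. A_72_P037251 gave 0.09, and the overlapping pair, O13671 and A_72_P371558, gave -0.13 and -0.12, none of which passed the threshold. The overlapping probes correlated at 0.88 with each other, while the lowest correlation among the 4 was 0.55. The lead probe and A_72_P037251 were closest to MBP, the myelin basic protein, at 0.60 and 0.55. The overlapping pair was closest to IDH2, COX7A1 and CS, mitochondrial enzymes and a subunit of the respiratory chain, at 0.67 to 0.69. The mean of the Schwann cell markers correlated at 0.40 with the lead probe. Slides accounted for 3.37% of the variance within groups at the lead probe and for 21.0% at O13671.

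APOO, a subunit of the contact site complex of the mitochondrial inner membrane, had probes with pooled SDs of 0.19 and 0.18, the smallest of the 18. At the lead probe and with the LF feed, the low line covered 3.19 to 3.64 (median 3.46) and the high line 3.0 to 3.57 (median 3.43). HF-fed pigs spanned 2.96 to 3.74 (median 3.33) in the low line and 3.13 to 3.80 (median 3.51) in the high line. The groups overlapped. Between the lines it differed by 0.03 (standard error 0.05, limma adjusted p = 0.719), with a 95% confidence interval from -0.08 to 0.14. The second probe shares 52 bases with it, gave 0.03 as well, and correlated with it at 0.97. The lead probe was closest to NDUFA4 at 0.84, NDUFB3 at 0.83 and ckmt2 at 0.83, subunits of the respiratory chain and the mitochondrial creatine kinase of muscle.

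Of 11 listed partners of APOO in that complex, 7 were tested, and 14.3% were called between the lines, against 16.4% of all probes. SAMM50, a protein of the mitochondrial outer membrane, fell by 0.13 in high RFI pigs (limma adjusted p = 0.0378), and the other 6 did not pass the threshold. The mean of the 7 correlated at 0.57 with the APOO lead probe.

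Between diets, 13 of the 15 probes with a p had a difference above 0, HF minus LF. Limma called 0 of the 15, against 0.42% of all probes, with 5 at an unadjusted p under 0.05 against 13.1% of all probes. These 5 were the 4 probes of APOA1, with differences of 0.15 to 0.19, and the APOD probe A_72_P037251, at 0.17. The smallest adjusted p was 0.207. The APOA1 lead probe gave 0.18 (standard error 0.08, limma adjusted p = 0.319). The APOA4 upstream probe gave 0.54 between diets (standard error 0.23). For the interaction, the 15 probes lay between -0.36 and 0.19, with a smallest adjusted p of 0.999 from limma.

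The other apolipoproteins on the list fixed for this work were measured less fully. Of 11, the 5 with a tested probe were APOA2, APOA5, APOC4, APOM and APOOL. Their line differences ran from -0.32 for APOM, a carrier of sphingosine phosphate, to -0.09 for APOOL. Limma called 0 of 5, against 16.4% of all probes, and the lowest adjusted p was 0.0809, for APOA2.

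Among receptors and uptake genes, 8 of 15 were tested, and 1 was called between the lines, or 12.5% against 16.4% of all probes. SORT1, a sorting receptor that binds APOB-containing particles, fell by 0.29 in high RFI pigs (standard error 0.08, limma adjusted p = 0.00757), and all 3 of its probes were called. LRP10, SCARB1 and CD36 lay between -0.04 and 0.01 at their lead probes, while 1 of 5 SCARB1 probes was called. The median line difference of the list was -0.04.

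Among lipases and their regulators, 6 of 10 were tested, and 3 rose in high RFI pigs, or 50% against 16.4% of all probes called. LIPA, the lysosomal acid lipase, rose by 0.56 (standard error 0.13, limma adjusted p = 0.00184), at all 4 of its probes. ANGPTL4, an inhibitor of lipoprotein lipase, rose by 0.42 (limma adjusted p = 0.0402), and LIPE, the hormone-sensitive lipase, by 0.31 (limma adjusted p = 0.025), each with 2 of its 4 probes called. LPL itself, which frees fatty acids from circulating particles, gave 0.01 (standard error 0.07, limma adjusted p = 0.931). The median of the list was 0.21.

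Of 10 genes of assembly, transfer and efflux, 8 were tested, and 25% were called between the lines, against 16.4% of all probes. ABCA1, which loads cholesterol onto APOA1, rose by 0.56 in high RFI pigs (standard error 0.16, limma adjusted p = 0.0104) and differed between diets by -0.69 (limma adjusted p = 0.032), HF minus LF. PLTP, the phospholipid transfer protein, fell by 0.20 (limma adjusted p = 0.048), with 1 of its 2 tested probes called. MTTP, needed to load lipid onto APOB, was well above background on 13 arrays. Of 16 regulators of apolipoprotein genes, 14 were tested, and 14.3% were called between the lines, against 16.4% of all probes. PPARD and RXRB fell by 0.28 and 0.24 (limma adjusted p = 0.0189 and 0.0403), with 2 of 3 and 1 of 3 probes called. HNF4A, a main activator of these genes in liver, gave -0.10 (limma adjusted p = 0.321).

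Marker lists of other cells were read against the 16.4% of all probes called between the lines. Of the 8 tested macrophage markers, 6 were higher in high RFI pigs, or 75%, and their summed level ranged from 1.80 to 3.47 in low RFI pigs and from 2.28 to 5.82 in high RFI pigs. LIPA, LIPE, ANGPTL4 and ABCA1 are also expressed by macrophages or fat cells, and the part of these cells in their differences was not tested. Of the 24 tested plasma protein genes, C3 was higher and SERPINA1, PON1, PON3 and RBP4 were lower in high RFI pigs. Of the 8 tested adipocyte markers, FABP4 and LIPE were higher. Of the 7 Schwann cell markers, PMP22 was higher and S100B and SOX10 lower, or 42.9%, and of 4 erythroid markers SLC4A1 was higher. Of 6 fibroblast and 6 endothelial markers, COL1A1 and TEK were higher. Of 12 muscle fibre markers, MYH2, TTN and PYGM were lower. Apart from macrophage, Schwann cell and enterocyte markers, of which 0 of 2 were called, the share called per marker list lay between 16.7% and 25%.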

How the data were processed

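Gene expression was measured in longissimus muscle of 48 pigs, with 12 for each line and diet. The authors deposited spot intensities from Agilent Feature Extraction, with the background subtracted and dim spots given surrogate values, and a table of log2 values, which holds the log2 of the median intensity minus the array median for 34472 probes. R 2.10.0 is named in the submitters' processing notes. Control and outlier spots were left out. The log2 processed signal of the 60305 probes was centred on the array mean over the 42125 probes that 12 or more arrays showed well above background. A linear model with 4 group means was fitted in limma 3.58.1 (R 4.3.3), and p-values were adjusted by Benjamini-Hochberg over all tested probes, calling those under 0.05. The fit was tested on simulated data. Apolipoprotein probes, gene lists and the rule for named genes were chosen with earlier results of these data known. The lead probe is the one well above background on most arrays, with ties settled by the highest mean level. Other probes were named when called or past 0.5. For likeness, the 3 probes with another symbol and the highest Pearson correlation over pigs after subtraction of group means were taken, among 37137 complete probes that 36 or more arrays showed well above background. List means in correlations used only the lead probes that are among these 37137. Shared bases were searched from runs of 20. The arrays lay on 6 slides of 8, with 2 of each group per slide, and were scanned on 2 days. The number of arrays limits the precision. Alternatives were other scalings, background correction, filters, outlier spots kept, slide as a block, the deposited table and the methods' variance analysis. The C4BPA probes and the run shared with the APOA4 probe were added after the data had been seen. Each array held 1 pig. No spot other than controls was saturated.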

Additional observations from a re-analysis of the deposited data

How the results depend on the processing

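The count of apolipoprotein probes called between the lines, over both diets and within the HF and the LF diet, was 1 under every alternative run except 2. When 24 or more arrays had to show a probe well above background, it was 0 of 15 in all 3 comparisons, and with the authors' deposited values 0 of 14, because the APOA4 probe is in neither set. For these in limma, the counts at an unadjusted p under 0.05 were 0, 1 and 0 with the first, and 0, 0 and 0 with the second. Counts for diet and interaction stayed at 0. Signs turned at 4 differences, each smaller than its standard error in the main fit, and the cause was not tested. With normexp background correction, the line difference of APOH on the LF diet turned from 0.03 to -0.01, and its diet difference from -0.12 to 0.05. The interaction of the upstream APOA4 probe turned from 0.43 (standard error 0.47) to -0.02. Without a filter on dim probes, the interaction of APOA1 turned from 0.02 to -0.01. The line difference of the upstream APOA4 probe was -0.41 with normexp and between -1.80 and -1.79 under the other alternatives that held it. Since the probe was kept through the low RFI pigs, its calls are no sign of stability. No paired analysis was possible because the labels number every pig as replicate 1. Of the 7 C4BPA probes, 4 passed with normexp, 3 with the deposited values, 2 with outlier spots kept, 0 without the filter on dim probes, and 1 under each of the other alternatives. Signals near the background limit the values of APOA4 and APOH.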
